A study of Saccharomyces cerevisiae with 32 samples.

Results

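The ATG genes encode the machinery of autophagy, the process by which a cell encloses part of its cytoplasm in a double membrane, the autophagosome, and delivers it to the vacuole for breakdown and reuse. In budding yeast the pathway runs at a low level in growing cells and is known to be induced by starvation, at the level of protein kinases and of transcription. The ATG genes were taken as the rows of the expression table whose symbol is ATG followed directly by a digit, which gave 31 of 6328 genes. They were measured by RNA sequencing in 3 strains of Saccharomyces cerevisiae. Y128 was evolved without oxygen on xylose from Y127 and adds null mutations of GRE3 and IRA2 to those of its parent. Y127 was evolved with oxygen on xylose from Y22-3 and carries null mutations of ISU1 and HOG1. Y22-3 is a stress-tolerant strain engineered for xylose metabolism with the xylose isomerase gene xylA of Clostridium phytofermentans, the xylulokinase gene XYL3 and a transaldolase gene, which the evolved strains share. Per the study, Y22-3 itself was unable to metabolize xylose. Each strain is 1 line, so a difference between strains is a difference between lines.

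All cultures were in rich medium with 2% sugar, without oxygen (-O2) or with it (+O2). On xylose -O2, xylose +O2, glucose -O2 and glucose +O2 each of the 3 strains had 2 libraries, collected on different days, which gives 12 groups and 24 libraries. On sorbitol and galactose, Y128 and Y22-3 had 1 library at each oxygen state, which gives 8 more. By their descriptions, 8 libraries came from cultures that were not growing, namely the xylose -O2 cultures of Y127 and Y22-3 and the 4 sorbitol cultures. These were kept for as long as a matched growing culture. Per the study's methods, cultures were started from saturated ones grown with oxygen on glucose. Growing cultures then passed about 3 generations to mid-log phase. Y22-3 and Y127 on xylose -O2 were instead inoculated at about the density that growing cultures reached. Their cells were thus not diluted by growth from the saturated state, and the part of this in the results was not tested. The other 24 libraries came from growing cultures. The growth stage tag of the same records reads exponential for every library, and the descriptions were followed here.

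The deposited values are log2 RPKM, the log2 of reads per kilobase of gene relative to the library's total. Over the 32 libraries, the scaling totals recovered from these values lay between 7.53 and 24.1 M reads, M standing for mega, and the median ATG gene had 85 to 1056 reads per library. The lowest ATG gene had 2.70 reads, in Y128 on sorbitol -O2. The galactokinase gene GAL1 was at 10.4 to 12.3 log2 RPKM in the 4 galactose libraries and at 0.007 to 3.77 log2 RPKM in the other 28. DAN1 and TIR1 were among the genes chosen to check -O2. DAN1 was at 9.09 to 10.8 on glucose -O2. In Y22-3 it was at -0.07 and 1.17 on xylose -O2 and 1.42 on sorbitol -O2. These lie within its range with oxygen, -4.23 to 1.79. There TIR1 was higher without oxygen on xylose (3.82 and 4.07 against -0.91 and -0.06) and not on sorbitol (3.83 against 4.32). Per the study, hypoxic genes were largely uninduced in Y22-3 on xylose. Transcripts of the 4 genes mutated in the evolved strains were present in every strain, so they do not check the strain labels. The Y22-3 library on galactose -O2 stood apart from the other libraries labelled as growing. Its ribosomal protein genes had a median of 6.74 log2 RPKM, against 5.75 to 7.75 in the 8 that were not growing and 7.99 to 11 in the other 23 growing libraries. RPKM is a share of a bulk library, so a change in RNA per cell and a change in the make-up of the culture cannot be told apart.

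The 31 genes were grouped by the step at which their products act. The Atg1 kinase complex starts the process (ATG1, ATG11, ATG13, ATG17, ATG29 and ATG31). A phosphatidylinositol 3-kinase complex marks the site (ATG14 and ATG38). Atg9 vesicles and lipid transfer supply the membrane (ATG2, ATG9, ATG18, ATG23 and ATG27). A pair of ubiquitin-like systems act on the growing membrane, one that attaches Atg8 to lipid (ATG3, ATG4, ATG7 and ATG8) and one that joins Atg12 to Atg5 (ATG5, ATG10, ATG12 and ATG16). Cargo receptors, which choose what is enclosed, were grouped with other genes listed under selective autophagy (ATG19, ATG20, ATG21, ATG26, ATG32, ATG33, ATG34 and ATG36). Not all genes of that group select cargo. The vacuole then opens the vesicle and exports the products (ATG15 and ATG22).

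**Figure D1:**
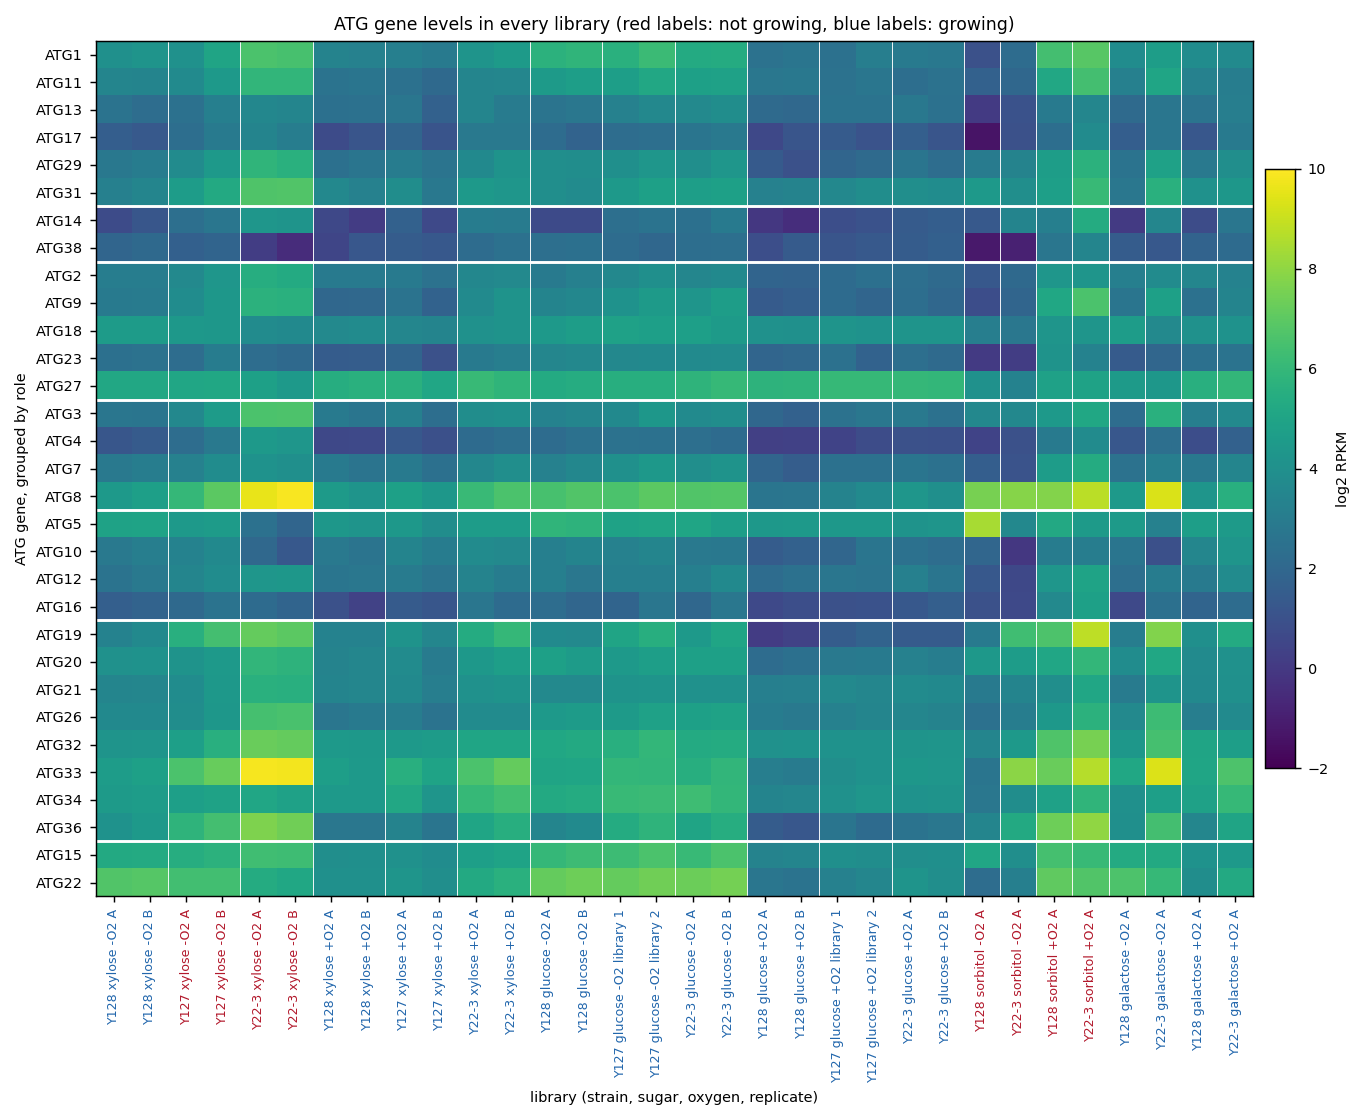
Level of each of the 31 ATG genes (rows, grouped by role) in each of the 32 libraries (columns), as log2 RPKM by colour, with not growing cultures in red labels and growing cultures in blue. ATG8 and ATG33 are brightest in Y22-3 on xylose -O2, at 9.62 to 9.89 log2 RPKM, while ATG5 is brightest in Y128 on sorbitol -O2, at 8.42.

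The level of the ATG genes was set apart by growth only in part. The median of the 31 genes was 2.46 to 5.49 log2 RPKM in the 8 not growing libraries, with a middle value of 4.56, and 2.24 to 4.71 in the 24 growing ones, with a middle value of 3.38. The ranges overlapped. The highest medians were those of Y22-3 on xylose -O2, at 5.33 and 5.49, and on sorbitol +O2, at 5.40. The lowest of the not growing medians were those of sorbitol -O2, at 2.46 in Y128 and 3.18 in Y22-3, which lay within the range of growing cultures. The median of all 6328 genes was itself low in these libraries, at 2.50 log2 RPKM in Y128 and 1.77 in Y22-3 on sorbitol -O2, so the ATG median was also set against it. By that measure the not growing libraries ran from -0.14 to 2.49 and the growing ones from -1.65 to 1.45. The growing library at 1.45 was Y22-3 on galactose -O2, and the highest of the other growing libraries was at 0.51, in Y127 on glucose -O2. Of the 31 genes, 24 had their highest library among the 8 not growing ones, as did 32.3% of all 6328 genes. For 13 it was Y22-3 on sorbitol +O2 (8.98% of all genes) and for 9 a library of Y22-3 on xylose -O2 (11.5%). The lowest library was one of the sorbitol -O2 pair for 19 of the 31, and for 52.5% of all genes. All not growing libraries lay above all growing ones for 0 of the 31, and likewise for 0 of the 6328.

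**Figure D2:**
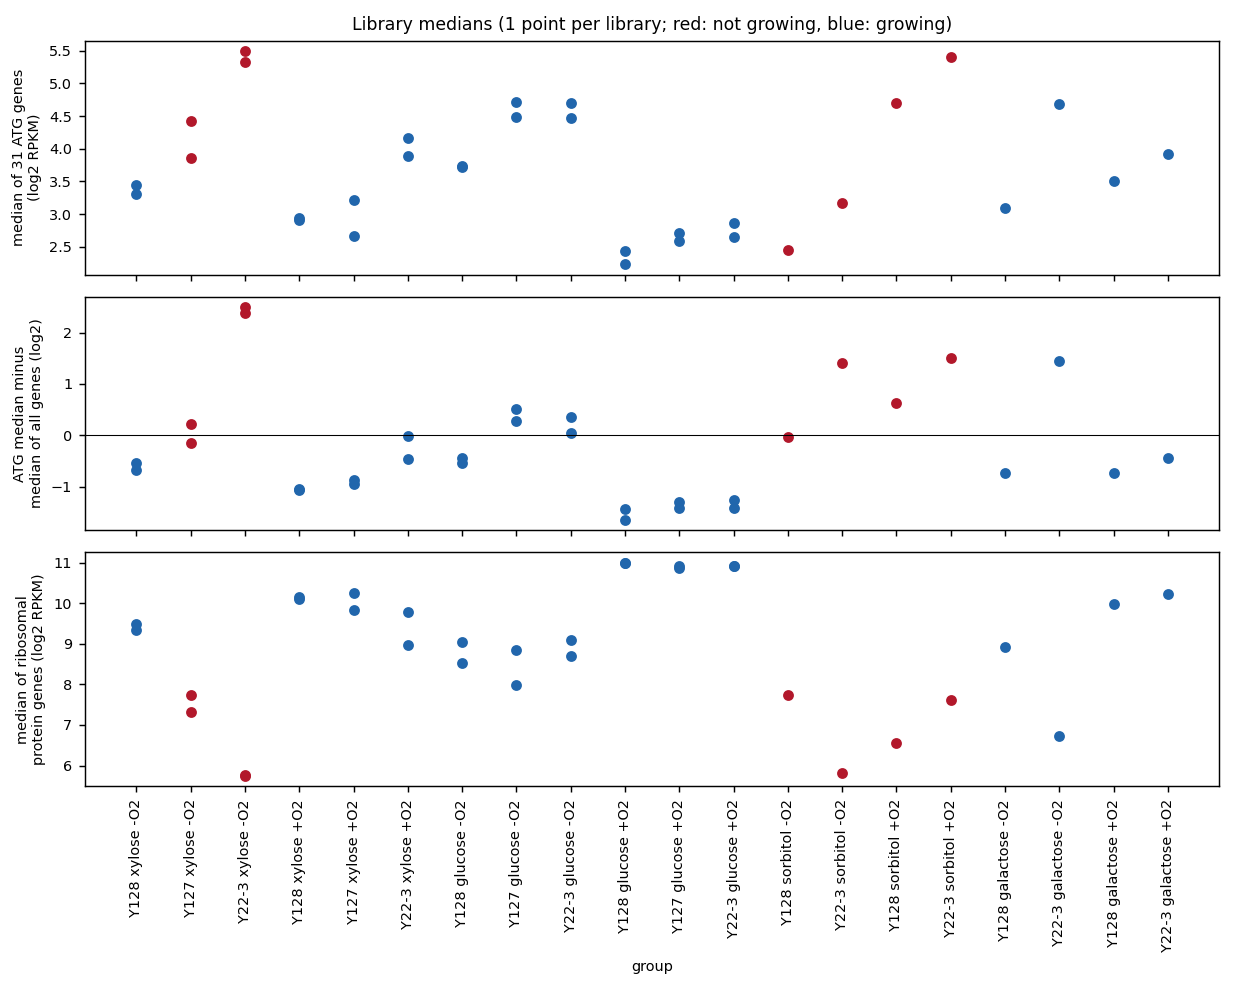
Each point is 1 library, not growing in red and growing in blue, over the 20 groups. The top panel gives the median of the 31 ATG genes in log2 RPKM, the middle panel that median minus the median of all genes, and the bottom panel the median of the ribosomal protein genes. Y22-3 on xylose -O2 (5.49 and 5.33) and on sorbitol +O2 (5.40) has the highest ATG medians, and Y22-3 on xylose -O2 the lowest ribosomal protein medians (5.77 and 5.75).

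Most ATG genes followed the median of the rest of the set. Over the 24 duplicated libraries, the Pearson correlation of a gene with the median of the other 30 was 0.99 for ATG9, 0.97 for ATG8 and 0.85 or more for 22 genes. It was 0.25 for ATG18, 0.20 for ATG10, 0.02 for ATG38, -0.28 for ATG5 and -0.50 for ATG27. These correlations are a description, since the libraries of 1 group share their culture conditions and all genes of a library share its total. Genes outside the set were not correlated with this median, so the count of 22 has no background.

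The first question was how each strain changed on xylose -O2 relative to glucose -O2, since xylose without oxygen is the condition in which Y22-3 and Y127 did not grow and Y128 did. All 31 genes passed the filter of a mean of 1 RPKM, under which 5801 genes were tested in 1 limma model of the 12 groups, with Benjamini-Hochberg adjustment over all of them and a threshold of 0.05. Fold changes below are on the log2 scale with their SE, from 2 libraries per group. Each SE uses 1 spread per gene shared by the 12 groups, so it is alike in all strains. It does not measure the spread of the libraries compared. On xylose -O2, ATG8 had an SD of 0.71 in Y127 and 0.20 in Y128. The share of all tested genes called in each direction is given as the background.

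In Y128, 1 ATG gene rose and 13 fell, while 12.3% of all tested genes rose and 26.5% fell, and the median ATG change was -0.53 against -0.18 over all genes tested. In Y127, 2 rose and 11 fell (background 21.8% and 28.4%), with an ATG median of -0.28 against -0.10. In Y22-3, 18 rose and 8 fell (background 21.9% and 64.7%), with an ATG median of 1.03 against -1.39. Most genes were thus lower in Y22-3 on xylose -O2, and most ATG genes were higher. With every library centred on its own median, which moved the median of all genes in Y22-3 to -0.15, 24 ATG genes rose there and 3 fell, namely ATG5, ATG22 and ATG38 (background after centring 40.4% and 45.9%). In Y127 the count of genes that fell was 5 without replicate A of xylose -O2 and 6 without library 2 of glucose -O2, and the count that rose was 1 without replicate B of xylose -O2 or library 1 of glucose -O2. The single rise in Y128 was called in none of the fits that left out a library.

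**Figure D3:**
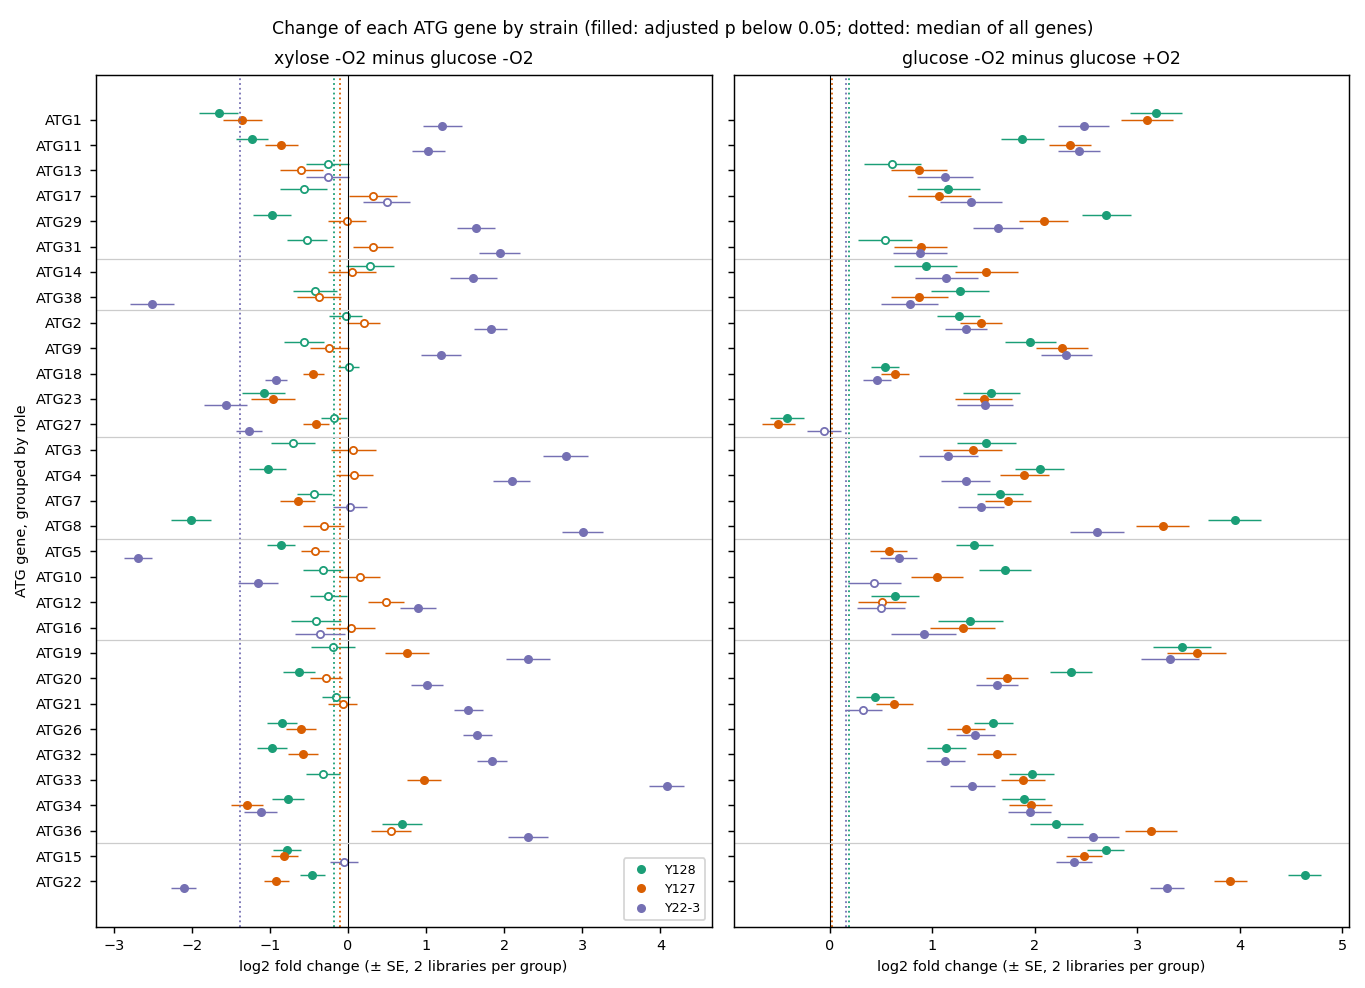
Log2 fold change of each ATG gene, with SE bars, on xylose -O2 minus glucose -O2 (left) and glucose -O2 minus glucose +O2 (right) in Y128 (green), Y127 (orange) and Y22-3 (purple). The SE comes from the spread shared by the 12 groups. Filled points passed an adjusted p of 0.05, and dotted lines are medians of all tested genes. On the left, Y22-3 spans -2.69 (ATG5) to 4.08 (ATG33) while its all-gene median is -1.39. On the right, ATG27 is the 1 gene below 0 in all 3 strains.

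The strain difference in that change was tested as an interaction. Between Y128 and Y22-3, 20 of the 31 changes were lower in Y128 and 6 higher, against 23% and 56.1% of all genes. Between Y127 and Y22-3, 18 were lower in Y127 and 6 higher (background 17.2% and 60%). Between Y128 and Y127, 4 were lower in Y128 (ATG4, ATG8, ATG29 and ATG33) and 0 higher (background 16.2% and 11.5%), with 1 gene higher at an unadjusted p under 0.05 (background 16%) and 2 called higher after centring (background 20.5%). The 4 genes are 12.9% of the ATG genes, below the share of all genes. After centring, the counts lower and higher were 24 and 3 for Y128 against Y22-3 (background 39.6% and 42.7%) and 24 and 2 for Y127 against Y22-3 (background 36.4% and 40.7%). The count of 4 was 9 without replicate A of Y127 on xylose -O2, and 2 without replicate B of that group, replicate A of Y128 on xylose -O2, replicate B of Y128 on glucose -O2 or library 1 of Y127 on glucose -O2.

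Taking the roles in turn, the Atg1 kinase complex had 3 of 6 genes lower on xylose -O2 than on glucose -O2 in Y128 and 2 in Y127, with 0 higher. The background was 26.5% lower and 12.3% higher in Y128, and 28.4% and 21.8% in Y127. In Y22-3 4 were higher and 0 lower (background 21.9% and 64.7%). ATG1, the kinase that starts autophagy, had 4.04 and 4.20 in Y128, 4.06 and 5.00 in Y127 and 6.60 and 6.5 in Y22-3 on xylose -O2, as log2 RPKM. On glucose -O2 ATG1 had 5.69 and 5.87 in Y128, 5.60 and 6.17 in Y127 and 5.33 and 5.36 in Y22-3. In both evolved strains the xylose values lay below the glucose values and in Y22-3 above them, with no overlap of the groups. The change was -1.66 ± 0.25 in Y128, -1.35 ± 0.25 in Y127 and 1.21 ± 0.25 in Y22-3 (limma adjusted p = 3.76e-05, 1.80e-04 and 1.74e-04). With oxygen ATG1 was lower, at 3.37 and 3.26 in Y128, 3.18 and 2.88 in Y127 and 4.20 and 4.55 in Y22-3 on xylose, and 2.50 and 2.68 in Y128, 2.47 and 3.11 in Y127 and 2.94 and 2.80 in Y22-3 on glucose. On sorbitol ATG1 had 1.0 in Y128 and 2.22 in Y22-3 without oxygen, and 6.41 in Y128 and 6.89 in Y22-3 with oxygen. On galactose ATG1 had 3.85 in Y128 and 4.68 in Y22-3 without oxygen, and 3.85 in Y128 and 3.76 in Y22-3 with oxygen. ATG1 was highest in a library of Y22-3 on sorbitol +O2 and lowest in one of Y128 on sorbitol -O2.

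ATG11, the scaffold of selective autophagy in this complex, had 3.44 and 3.40 in Y128, 3.75 and 4.46 in Y127 and 5.90 and 5.88 in Y22-3 on xylose -O2, in log2 RPKM. On glucose -O2 it had 4.56 and 4.74 in Y128, 4.72 and 5.20 in Y127 and 4.84 and 4.89 in Y22-3. The changes had the directions of those of ATG1, at -1.23 ± 0.21 in Y128, -0.85 ± 0.21 in Y127 and 1.03 ± 0.21 in Y22-3 (limma adjusted p = 1.06e-04, 0.00191 and 1.10e-04). With oxygen ATG11 had 2.58 and 2.64 in Y128, 2.47 and 2.09 in Y127 and 3.47 and 3.51 in Y22-3 on xylose, and 2.74 and 2.80 in Y128, 2.51 and 2.72 in Y127 and 2.32 and 2.54 in Y22-3 on glucose. On sorbitol ATG11 had 1.75 in Y128 and 2.02 in Y22-3 without oxygen, and 5.22 in Y128 and 6.42 in Y22-3 with oxygen. On galactose ATG11 had 3.24 in Y128 and 5.04 in Y22-3 without oxygen, and 3.28 in Y128 and 3.10 in Y22-3 with oxygen. ATG11 was highest in a library of Y22-3 on sorbitol +O2 and lowest in one of Y128 on sorbitol -O2.

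ATG13 is the regulatory subunit through which the TORC1 kinase acts on Atg1. On xylose -O2 ATG13 was at 2.58 and 2.28 in Y128, 2.49 and 3.18 in Y127 and 3.56 and 3.46 in Y22-3, in log2 RPKM. On glucose -O2 ATG13 had 2.62 and 2.77 in Y128, 3.28 and 3.60 in Y127 and 3.64 and 3.90 in Y22-3. The change of ATG13 passed the threshold in none of the 3 strains, with -0.26 ± 0.27 in Y128, -0.60 ± 0.27 in Y127 and -0.26 ± 0.27 in Y22-3 (limma adjusted p = 0.464, 0.0758 and 0.379). After centring, ATG13 fell by 0.51 in Y127 and rose by 0.98 in Y22-3, both past the threshold. With oxygen ATG13 had 2.41 and 2.48 in Y128, 2.71 and 1.74 in Y127 and 3.47 and 2.99 in Y22-3 on xylose, and 2.13 and 2.04 in Y128, 2.59 and 2.55 in Y127 and 2.82 and 2.46 in Y22-3 on glucose. On sorbitol ATG13 had 0.04 in Y128 and 1.02 in Y22-3 without oxygen, and 2.95 in Y128 and 3.49 in Y22-3 with oxygen. On galactose ATG13 had 2.14 in Y128 and 2.69 in Y22-3 without oxygen, and 2.61 in Y128 and 3.13 in Y22-3 with oxygen. ATG13 was highest in a library of Y22-3 on glucose -O2 and lowest in one of Y128 on sorbitol -O2. The scaffold genes ATG29 and ATG31 rose in Y22-3, by 1.64 ± 0.24 and 1.94 ± 0.26 (limma adjusted p = 2.70e-06 and 7.06e-07), and ATG17 changed by 0.49 ± 0.30 (limma adjusted p = 0.135), which became a called rise of 1.73 after centring. ATG29 overlaps YPL165C on the opposite strand in the reference annotation, and the strand setting of the counting is not given in the sources used here, so reads of the pair may be shared.

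The 2 subunits of the phosphatidylinositol 3-kinase complex that carry ATG symbols went opposite ways in Y22-3. ATG14, the subunit that directs the complex to autophagy, had 0.75 and 1.22 in Y128, 2.37 and 2.70 in Y127 and 4.31 and 4.20 in Y22-3 on xylose -O2, in log2 RPKM. On glucose -O2 ATG14 had 0.70 and 0.70 in Y128, 2.39 and 2.57 in Y127 and 2.42 and 2.88 in Y22-3. Y128 was lowest on both sugars, and the xylose values lay above the glucose values in Y22-3, where the change was 1.61 ± 0.31 (limma adjusted p = 6.04e-05). In Y128 and Y127 the ATG14 groups differed by 0.28 ± 0.31 and 0.05 ± 0.31. With oxygen ATG14 had 0.62 and 0.12 in Y128, 1.74 and 0.66 in Y127 and 3.06 and 3.01 in Y22-3 on xylose, and -0.05 and -0.41 in Y128, 0.88 and 1.03 in Y127 and 1.45 and 1.58 in Y22-3 on glucose. On sorbitol ATG14 had 1.33 in Y128 and 3.42 in Y22-3 without oxygen, and 3.19 in Y128 and 5.36 in Y22-3 with oxygen. On galactose ATG14 had 0.04 in Y128 and 3.53 in Y22-3 without oxygen, and 0.77 in Y128 and 2.70 in Y22-3 with oxygen. ATG14 was highest in a library of Y22-3 on sorbitol +O2 and lowest in one of Y128 on glucose +O2. ATG38, which links the subunits of the complex, had 1.91 and 2.10 in Y128, 1.66 and 1.85 in Y127 and 0.19 and -0.47 in Y22-3 on xylose -O2. On glucose -O2 ATG38 had 2.40 and 2.45 in Y128, 2.26 and 1.99 in Y127 and 2.34 and 2.40 in Y22-3. The change was -0.42 ± 0.28 in Y128 and -0.37 ± 0.28 in Y127, neither past the threshold, and -2.51 ± 0.28 in Y22-3, where it fell (limma adjusted p = 5.45e-08). That fall rests on few reads, an estimated 12.6 and 7.02 in the libraries of Y22-3 on xylose -O2. ATG38 had 0.53 and 1.24 in Y128, 1.48 and 1.32 in Y127 and 2.23 and 2.48 in Y22-3 on xylose +O2, and 0.89 and 1.42 in Y128, 1.18 and 1.33 in Y127 and 1.49 and 1.70 in Y22-3 on glucose +O2. On sorbitol ATG38 had -1.18 in Y128 and -0.88 in Y22-3 without oxygen, and 2.69 in Y128 and 3.47 in Y22-3 with oxygen. On galactose ATG38 had 1.52 in Y128 and 1.32 in Y22-3 without oxygen, and 1.81 in Y128 and 2.18 in Y22-3 with oxygen. ATG38 was highest in a library of Y22-3 on sorbitol +O2 and lowest in one of Y128 on sorbitol -O2.

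In the membrane supply group, 2 of 5 genes rose (ATG2 and ATG9) and 3 fell (ATG18, ATG23 and ATG27) in Y22-3 (background 21.9% and 64.7%). The share that fell was near that of all genes, and after centring none of these 3 was called lower there. ATG9, the membrane protein of the vesicles from which the autophagosome starts, had 2.88 and 3.01 in Y128, 3.83 and 4.34 in Y127 and 5.72 and 5.62 in Y22-3 on xylose -O2, in log2 RPKM. On glucose -O2 ATG9 had 3.44 and 3.58 in Y128, 4.10 and 4.55 in Y127 and 4.27 and 4.69 in Y22-3. Its change was -0.56 ± 0.25 in Y128 and -0.24 ± 0.25 in Y127, both short of the threshold, and 1.19 ± 0.25 in Y22-3 (limma adjusted p = 2.00e-04). With oxygen it had 1.99 and 2.07 in Y128, 2.59 and 1.79 in Y127 and 3.74 and 4.19 in Y22-3 on xylose, and 1.45 and 1.65 in Y128, 2.19 and 1.92 in Y127 and 2.36 and 1.99 in Y22-3 on glucose. On sorbitol ATG9 had 0.82 in Y128 and 1.92 in Y22-3 without oxygen, and 5.16 in Y128 and 6.60 in Y22-3 with oxygen. On galactose ATG9 had 2.65 in Y128 and 4.80 in Y22-3 without oxygen, and 2.49 in Y128 and 3.42 in Y22-3 with oxygen. ATG9 was highest in a library of Y22-3 on sorbitol +O2 and lowest in one of Y128 on sorbitol -O2. ATG23, a peripheral protein of the Atg9 vesicles, fell in all 3 strains.

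ATG23 had 2.41 and 2.54 in Y128, 2.31 and 3.04 in Y127 and 2.31 and 2.08 in Y22-3 on xylose -O2, in log2 RPKM. On glucose -O2 ATG23 had 3.53 and 3.59 in Y128, 3.59 and 3.68 in Y127 and 3.74 and 3.78 in Y22-3. The changes were -1.08 ± 0.28 in Y128, -0.96 ± 0.28 in Y127 and -1.57 ± 0.28 in Y22-3 (limma adjusted p = 0.0044, 0.00684 and 2.45e-05), and after centring the fall in Y22-3 was 0.33 and did not pass. With oxygen ATG23 had 1.48 and 1.54 in Y128, 1.86 and 0.98 in Y127 and 2.91 and 3.14 in Y22-3 on xylose, and 1.92 and 2.05 in Y128, 2.49 and 1.78 in Y127 and 2.37 and 2.12 in Y22-3 on glucose. On sorbitol ATG23 had 0.02 in Y128 and 0.19 in Y22-3 without oxygen, and 4.14 in Y128 and 3.31 in Y22-3 with oxygen. On galactose ATG23 had 1.46 in Y128 and 1.96 in Y22-3 without oxygen, and 2.41 in Y128 and 2.56 in Y22-3 with oxygen. ATG23 was highest in a library of Y128 on sorbitol +O2 and lowest in one of Y128 on sorbitol -O2. ATG2, which transfers lipid at the edge of the membrane, rose by 1.82 ± 0.21 in Y22-3 (limma adjusted p = 7.18e-08). Its partner ATG18, which binds the lipid mark, fell by 0.44 in Y127 and by 0.92 in Y22-3, and centring turned the fall in Y22-3 into a called rise. ATG27, a membrane protein that cycles with Atg9, changed by -0.41 ± 0.16 in Y127 and -1.27 ± 0.16 in Y22-3 (limma adjusted p = 0.0428 and 4.29e-07), and after centring the change in Y22-3 was -0.04 and did not pass.

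The Atg8 system held the gene whose change differed most between Y128 and Y22-3, which was ATG8. Of its 4 genes, 2 fell in Y128 (ATG4 and ATG8), 1 fell in Y127 (ATG7) and 3 rose in Y22-3 (ATG3, ATG4 and ATG8). The background was 26.5% lower in Y128, 28.4% lower in Y127 and 21.9% higher in Y22-3. ATG8, the ubiquitin-like protein that coats the membrane and is used up with it, had 4.49 and 4.77 in Y128, 5.98 and 6.99 in Y127 and 9.62 and 9.89 in Y22-3 on xylose -O2, in log2 RPKM. On glucose -O2 it had 6.53 and 6.75 in Y128, 6.62 and 6.98 in Y127 and 6.74 and 6.77 in Y22-3, where the strains overlapped. On xylose the strains did not overlap, with Y128 lowest, Y127 between and Y22-3 highest. The change was -2.01 ± 0.26 in Y128 and 3.00 ± 0.26 in Y22-3 (limma adjusted p = 5.91e-06 and 1.12e-09), while in Y127 it was -0.31 ± 0.26 and did not pass. All 3 interactions for ATG8 passed the threshold, at -5.01 ± 0.37 for Y128 against Y22-3, -1.70 ± 0.37 for Y128 against Y127 and -3.32 ± 0.37 for Y127 against Y22-3 (limma adjusted p = 3.59e-10, 0.00193 and 1.31e-07). With oxygen ATG8 had 4.55 and 4.22 in Y128, 4.81 and 4.35 in Y127 and 6.12 and 6.58 in Y22-3 on xylose, and 2.67 and 2.72 in Y128, 3.38 and 3.73 in Y127 and 4.32 and 3.96 in Y22-3 on glucose. On sorbitol ATG8 had 7.56 in Y128 and 7.82 in Y22-3 without oxygen, and 7.76 in Y128 and 8.75 in Y22-3 with oxygen. On galactose ATG8 had 4.5 in Y128 and 9.32 in Y22-3 without oxygen, and 4.27 in Y128 and 5.59 in Y22-3 with oxygen. ATG8 was highest in a library of Y22-3 on xylose -O2 and lowest in one of Y128 on glucose +O2. The growing Y22-3 culture on galactose -O2 lay above every library but those of Y22-3 on xylose -O2.

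**Figure D4:**
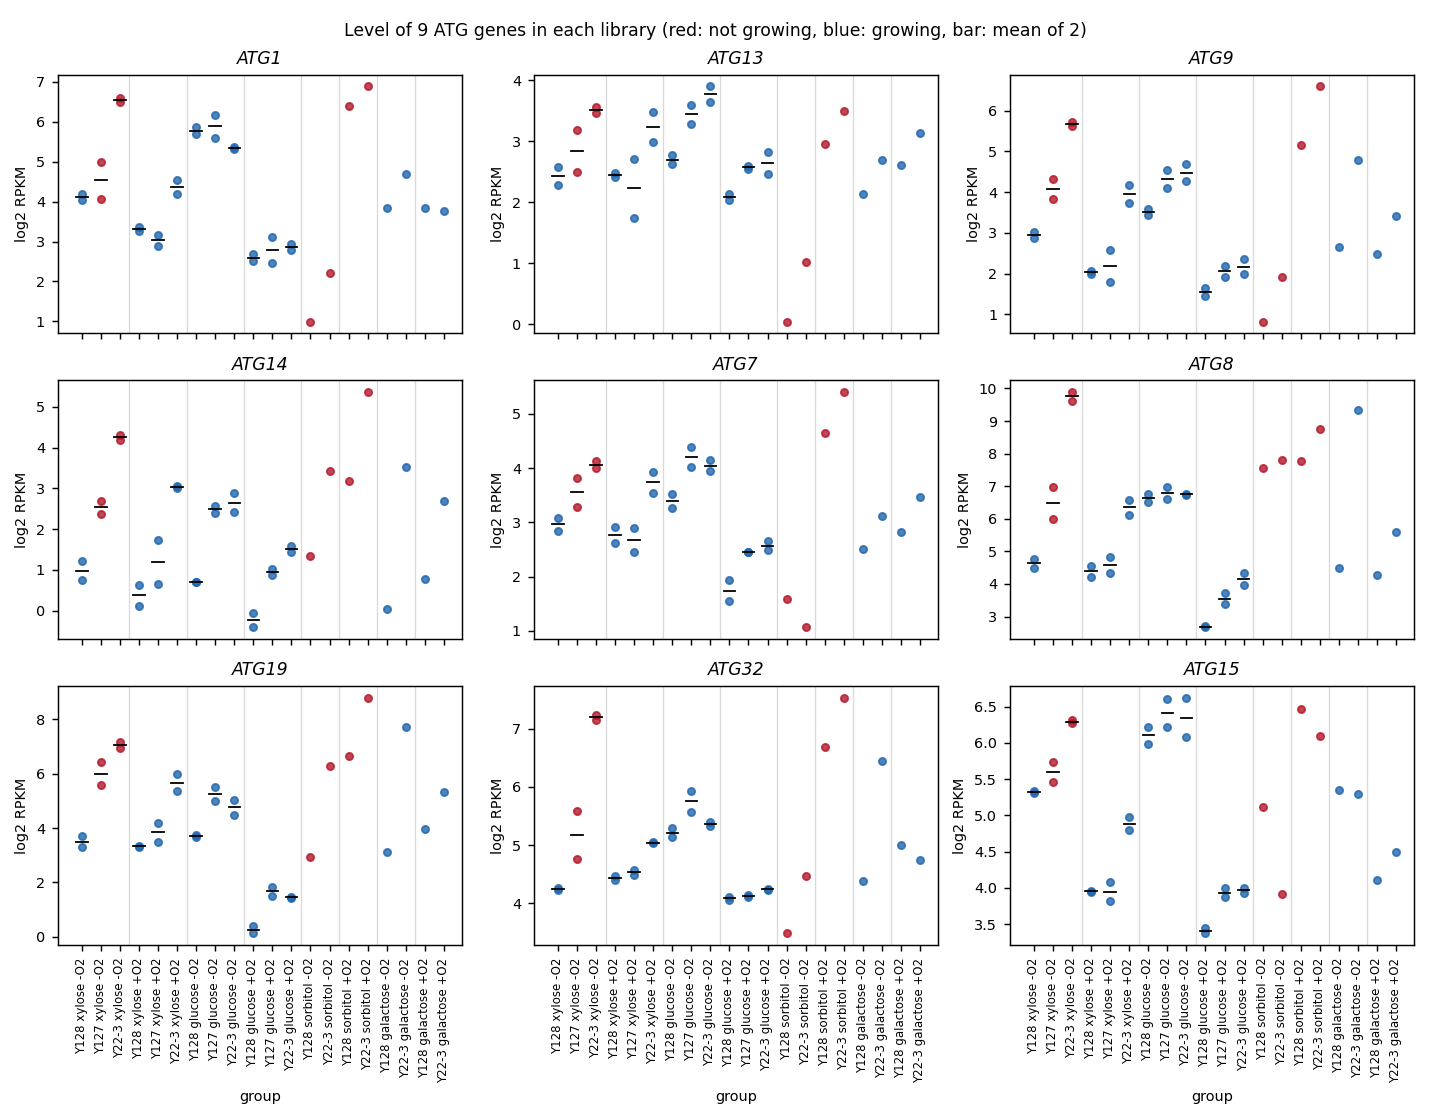
Level in log2 RPKM of 9 ATG genes, 1 panel each, in every library (points) of the 20 groups, with not growing cultures in red, growing cultures in blue and the mean of 2 libraries as a bar. For ATG8 the 2 Y22-3 libraries on xylose -O2 (9.62 and 9.89) and the galactose -O2 library of Y22-3 (9.32) lie above all others.

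ATG3, the enzyme that hands Atg8 to its lipid, had 2.69 and 2.68 in Y128, 3.62 and 4.60 in Y127 and 6.59 and 6.63 in Y22-3 on xylose -O2, in log2 RPKM. On glucose -O2 ATG3 had 3.30 and 3.47 in Y128, 3.72 and 4.37 in Y127 and 3.76 and 3.89 in Y22-3. The change was -0.70 ± 0.28 in Y128 and 0.07 ± 0.28 in Y127, neither called, and 2.78 ± 0.28 in Y22-3, where the xylose values lay above the glucose values (limma adjusted p = 1.34e-08). With oxygen ATG3 had 2.89 and 2.68 in Y128, 3.22 and 2.35 in Y127 and 3.89 and 3.99 in Y22-3 on xylose, and 1.99 and 1.74 in Y128, 2.52 and 2.78 in Y127 and 2.86 and 2.48 in Y22-3 on glucose. On sorbitol ATG3 had 3.59 in Y128 and 3.62 in Y22-3 without oxygen, and 4.51 in Y128 and 5.16 in Y22-3 with oxygen. On galactose ATG3 had 2.28 in Y128 and 5.62 in Y22-3 without oxygen, and 3.12 in Y128 and 3.64 in Y22-3 with oxygen. ATG3 was highest in a library of Y22-3 on xylose -O2 and lowest in one of Y128 on glucose +O2. ATG4, the protease that trims and recycles Atg8, fell by 1.03 in Y128 and rose by 2.10 ± 0.24 in Y22-3.

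ATG7 activates both ubiquitin-like proteins. On xylose -O2 ATG7 had 2.85 and 3.09 in Y128, 3.29 and 3.81 in Y127 and 4.14 and 4.0 in Y22-3, in log2 RPKM. On glucose -O2 ATG7 had 3.27 and 3.53 in Y128, 4.01 and 4.38 in Y127 and 3.94 and 4.14 in Y22-3. The change was -0.43 ± 0.22 in Y128, and in Y127 ATG7 fell by 0.65 (limma adjusted p = 0.0214). The groups overlapped in Y22-3, with a change of 0.02 ± 0.22 (limma adjusted p = 0.922), and after centring ATG7 was 1.26 higher there and passed. With oxygen ATG7 had 2.90 and 2.62 in Y128, 2.90 and 2.45 in Y127 and 3.54 and 3.94 in Y22-3 on xylose, and 1.94 and 1.54 in Y128, 2.46 and 2.46 in Y127 and 2.65 and 2.49 in Y22-3 on glucose. On sorbitol ATG7 had 1.59 in Y128 and 1.06 in Y22-3 without oxygen, and 4.65 in Y128 and 5.40 in Y22-3 with oxygen. On galactose ATG7 had 2.51 in Y128 and 3.12 in Y22-3 without oxygen, and 2.82 in Y128 and 3.46 in Y22-3 with oxygen. ATG7 was highest in a library of Y22-3 on sorbitol +O2 and lowest in one of Y22-3 on sorbitol -O2.

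Of the 4 genes of the Atg12 system, 1 rose and 2 fell in Y22-3 (background 21.9% and 64.7%). ATG5, to which Atg12 is joined, had 4.93 and 4.97 in Y128, 4.45 and 4.61 in Y127 and 2.47 and 1.93 in Y22-3 on xylose -O2, in log2 RPKM. On glucose -O2 ATG5 had 5.86 and 5.77 in Y128, 4.93 and 4.99 in Y127 and 5.07 and 4.72 in Y22-3. It fell in Y128, at -0.86 ± 0.18 (limma adjusted p = 8.78e-04), and in Y127 the change was -0.43 ± 0.18, which did not pass, and after centring it did, at -0.34. Its fall in Y22-3 was the deepest of the 31 genes, at -2.69 ± 0.18 (limma adjusted p = 2.29e-11). With oxygen ATG5 had 4.34 and 4.22 in Y128, 4.38 and 3.89 in Y127 and 4.63 and 4.62 in Y22-3 on xylose, and 4.38 and 4.43 in Y128, 4.39 and 4.39 in Y127 and 4.18 and 4.27 in Y22-3 on glucose. On sorbitol ATG5 had 8.42 in Y128 and 3.61 in Y22-3 without oxygen, and 5.24 in Y128 and 4.55 in Y22-3 with oxygen. On galactose ATG5 had 4.53 in Y128 and 3.26 in Y22-3 without oxygen, and 4.73 in Y128 and 4.52 in Y22-3 with oxygen. ATG5 was highest in a library of Y128 on sorbitol -O2 and lowest in one of Y22-3 on xylose -O2. Outside Y128 on sorbitol -O2, ATG5 stayed at 5.86 or below. ATG10, which carries Atg12 to Atg5, fell by 1.15 in Y22-3, but after centring its change was 0.09 and did not pass. ATG12 rose by 0.90 ± 0.23 in Y22-3. ATG16, which binds the Atg12-Atg5 conjugate, changed by -0.36 ± 0.32 there and did not pass, while after centring it was called at 0.88.

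Among the cargo receptors and factors of selective autophagy, 1 of 8 rose in Y128 and 4 fell (background 12.3% and 26.5%). In Y127 2 rose and 3 fell (background 21.8% and 28.4%), and in Y22-3 7 rose and 1 fell (background 21.9% and 64.7%). ATG33, a mitochondrial membrane protein needed for the removal of mitochondria, had 4.61 and 4.83 in Y128, 6.61 and 7.19 in Y127 and 9.82 and 9.77 in Y22-3 on xylose -O2, in log2 RPKM. On glucose -O2 ATG33 had 5.00 and 5.08 in Y128, 5.95 and 5.90 in Y127 and 5.52 and 5.91 in Y22-3. In Y128 ATG33 changed by -0.32 ± 0.22 and did not pass, and in Y127 it rose by 0.97 ± 0.22 (limma adjusted p = 0.00104). Its rise in Y22-3 was the largest of the 31 genes, at 4.08 ± 0.22 (limma adjusted p = 9.78e-13). With oxygen it had 4.74 and 4.48 in Y128, 5.56 and 4.95 in Y127 and 6.60 and 7.14 in Y22-3 on xylose, and 3.13 and 3.02 in Y128, 3.95 and 4.14 in Y127 and 4.37 and 4.28 in Y22-3 on glucose. On sorbitol ATG33 had 2.66 in Y128 and 7.92 in Y22-3 without oxygen, and 7.28 in Y128 and 8.65 in Y22-3 with oxygen. On galactose ATG33 had 5.15 in Y128 and 9.34 in Y22-3 without oxygen, and 5.07 in Y128 and 6.64 in Y22-3 with oxygen. ATG33 was highest in a library of Y22-3 on xylose -O2 and lowest in one of Y128 on sorbitol -O2. Without oxygen on sorbitol the Y128 value lay far below that of Y22-3.

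ATG32, the receptor on the mitochondrial surface, had 4.23 and 4.25 in Y128, 4.76 and 5.59 in Y127 and 7.25 and 7.15 in Y22-3 on xylose -O2, in log2 RPKM. On glucose -O2 ATG32 had 5.14 and 5.29 in Y128, 5.57 and 5.94 in Y127 and 5.33 and 5.39 in Y22-3. Both evolved strains fell and Y22-3 rose, with changes of -0.97 ± 0.19 in Y128, -0.58 ± 0.19 in Y127, where the groups overlapped, and 1.84 ± 0.19 in Y22-3 (limma adjusted p = 4.65e-04, 0.0165 and 1.53e-08). With oxygen ATG32 had 4.47 and 4.40 in Y128, 4.49 and 4.57 in Y127 and 5.05 and 5.03 in Y22-3 on xylose, and 4.06 and 4.10 in Y128, 4.14 and 4.11 in Y127 and 4.22 and 4.24 in Y22-3 on glucose. On sorbitol ATG32 had 3.48 in Y128 and 4.46 in Y22-3 without oxygen, and 6.69 in Y128 and 7.53 in Y22-3 with oxygen. On galactose ATG32 had 4.37 in Y128 and 6.44 in Y22-3 without oxygen, and 4.99 in Y128 and 4.74 in Y22-3 with oxygen. ATG32 was highest in a library of Y22-3 on sorbitol +O2 and lowest in one of Y128 on sorbitol -O2. ATG36, the receptor for peroxisomes, was the 1 gene that rose in Y128.

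ATG36 had 4.12 and 4.45 in Y128, 5.83 and 6.43 in Y127 and 7.67 and 7.41 in Y22-3 on xylose -O2, in log2 RPKM. On glucose -O2 ATG36 had 3.44 and 3.74 in Y128, 5.37 and 5.79 in Y127 and 5.02 and 5.46 in Y22-3. It rose by 0.69 ± 0.26 in Y128 and 2.30 ± 0.26 in Y22-3 (limma adjusted p = 0.0389 and 5.05e-08), and its change of 0.55 ± 0.26 in Y127 did not pass before centring and did after it, at 0.64. With oxygen ATG36 had 2.77 and 2.78 in Y128, 3.38 and 2.66 in Y127 and 5.06 and 5.51 in Y22-3 on xylose, and 1.5 and 1.26 in Y128, 2.68 and 2.22 in Y127 and 2.59 and 2.75 in Y22-3 on glucose. On sorbitol ATG36 had 3.46 in Y128 and 5.28 in Y22-3 without oxygen, and 7.37 in Y128 and 7.99 in Y22-3 with oxygen. On galactose ATG36 had 3.99 in Y128 and 6.42 in Y22-3 without oxygen, and 3.50 in Y128 and 4.99 in Y22-3 with oxygen. ATG36 was highest in a library of Y22-3 on sorbitol +O2 and lowest in one of Y128 on glucose +O2.

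ATG19 and ATG34 are neighbouring paralogs that bring aminopeptidase and mannosidase to the vacuole, and in Y127 and Y22-3 they moved in opposite directions before centring. ATG19 had 3.30 and 3.70 in Y128, 5.58 and 6.43 in Y127 and 7.17 and 6.96 in Y22-3 on xylose -O2, in log2 RPKM. On glucose -O2 ATG19 had 3.73 and 3.66 in Y128, 4.99 and 5.51 in Y127 and 4.47 and 5.04 in Y22-3. It rose by 0.75 ± 0.28 in Y127 and 2.31 ± 0.28 in Y22-3 (limma adjusted p = 0.0331 and 2.04e-07), and the groups overlapped in Y128. With oxygen ATG19 had 3.31 and 3.33 in Y128, 4.18 and 3.50 in Y127 and 5.36 and 5.97 in Y22-3 on xylose, and 0.12 and 0.39 in Y128, 1.51 and 1.84 in Y127 and 1.42 and 1.46 in Y22-3 on glucose, the widest gap between the sugars of any ATG gene. On sorbitol ATG19 had 2.94 in Y128 and 6.30 in Y22-3 without oxygen, and 6.67 in Y128 and 8.79 in Y22-3 with oxygen. On galactose ATG19 had 3.10 in Y128 and 7.73 in Y22-3 without oxygen, and 3.97 in Y128 and 5.34 in Y22-3 with oxygen. ATG19 was highest in a library of Y22-3 on sorbitol +O2 and lowest in one of Y128 on glucose +O2. ATG34 had 4.52 and 4.63 in Y128, 4.77 and 4.90 in Y127 and 5.11 and 4.86 in Y22-3 on xylose -O2. On glucose -O2 ATG34 had 5.30 and 5.38 in Y128, 6.08 and 6.18 in Y127 and 6.25 and 5.97 in Y22-3, and it fell in every strain. The falls were -0.77 ± 0.21 in Y128, -1.30 ± 0.21 in Y127 and -1.12 ± 0.21 in Y22-3 (limma adjusted p = 0.00707, 3.64e-05 and 4.82e-05), and centring turned the last to 0.11. With oxygen ATG34 had 4.51 and 4.51 in Y128, 5.17 and 4.26 in Y127 and 6.04 and 6.35 in Y22-3 on xylose, and 3.42 and 3.49 in Y128, 4.05 and 4.29 in Y127 and 4.13 and 4.19 in Y22-3 on glucose. On sorbitol ATG34 had 2.78 in Y128 and 3.89 in Y22-3 without oxygen, and 4.85 in Y128 and 5.87 in Y22-3 with oxygen. On galactose ATG34 had 4.02 in Y128 and 4.78 in Y22-3 without oxygen, and 4.88 in Y128 and 6.02 in Y22-3 with oxygen. ATG34 was highest in a library of Y22-3 on xylose +O2 and lowest in one of Y128 on sorbitol -O2. Reads of the pair may be shared, since the handling of reads with several matches was left at the mapper's defaults. The sorting nexin gene ATG20, the lipid-binding ATG21 and ATG26, a sterol glucosyltransferase, rose by 1.01 ± 0.20, 1.54 ± 0.18 and 1.66 ± 0.19 in Y22-3 (limma adjusted p = 1.22e-04, 1.15e-07 and 7.17e-08).

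In the vacuole, ATG15, the lipase that opens the delivered vesicle, had 5.31 and 5.33 in Y128, 5.46 and 5.73 in Y127 and 6.31 and 6.27 in Y22-3 on xylose -O2, in log2 RPKM. On glucose -O2 ATG15 had 5.99 and 6.22 in Y128, 6.21 and 6.60 in Y127 and 6.08 and 6.62 in Y22-3. The evolved strains were lower on xylose, with changes of -0.78 ± 0.18 in Y128 and -0.82 ± 0.18 in Y127 (limma adjusted p = 0.0018 and 7.62e-04), while the Y22-3 groups overlapped, at -0.06 ± 0.18. Centring turned that last value to 1.18, which passed. With oxygen ATG15 had 3.94 and 3.96 in Y128, 4.08 and 3.82 in Y127 and 4.79 and 4.97 in Y22-3 on xylose, and 3.37 and 3.45 in Y128, 3.99 and 3.87 in Y127 and 3.93 and 4.0 in Y22-3 on glucose. On sorbitol ATG15 had 5.12 in Y128 and 3.91 in Y22-3 without oxygen, and 6.46 in Y128 and 6.10 in Y22-3 with oxygen. On galactose ATG15 had 5.35 in Y128 and 5.29 in Y22-3 without oxygen, and 4.11 in Y128 and 4.5 in Y22-3 with oxygen. ATG15 was highest in a library of Y22-3 on glucose -O2 and lowest in one of Y128 on glucose +O2. ATG22, which exports amino acids from the vacuole, had 6.75 and 6.85 in Y128, 6.38 and 6.36 in Y127 and 5.39 and 5.16 in Y22-3 on xylose -O2. On glucose -O2 ATG22 had 7.16 and 7.37 in Y128, 7.19 and 7.39 in Y127 and 7.29 and 7.47 in Y22-3. ATG22 fell in all 3 strains, with changes of -0.46 ± 0.16 in Y128, -0.92 ± 0.16 in Y127 and -2.10 ± 0.16 in Y22-3 (limma adjusted p = 0.0321, 1.04e-04 and 1.94e-10), and after centring the fall in Y128 was 0.25 and did not pass. With oxygen ATG22 had 4.05 and 4.02 in Y128, 4.24 and 3.95 in Y127 and 5.30 and 5.62 in Y22-3 on xylose, and 2.69 and 2.56 in Y128, 3.27 and 3.49 in Y127 and 4.23 and 3.95 in Y22-3 on glucose. On sorbitol ATG22 had 2.28 in Y128 and 3.18 in Y22-3 without oxygen, and 7.09 in Y128 and 6.76 in Y22-3 with oxygen. On galactose ATG22 had 6.63 in Y128 and 6.03 in Y22-3 without oxygen, and 3.87 in Y128 and 5.29 in Y22-3 with oxygen. ATG22 was highest in a library of Y22-3 on glucose -O2 and lowest in one of Y128 on sorbitol -O2.

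Set side by side on xylose -O2, most ATG genes were called between strains, as were most of all genes tested. The directions are given with their background. In Y128 against Y22-3, 22 genes were lower and 6 higher (background 27.7% and 58.2%), with an ATG median of -2.11 against 1.04 over all genes. The 6 higher in Y128 were ATG5, ATG10, ATG18, ATG22, ATG27 and ATG38, of which ATG5, ATG22 and ATG38 were still called higher after centring. In Y127 against Y22-3, both not growing, 21 were lower and 6 higher (background 20.4% and 61.2%), with an ATG median of -1.41 against 1.12. In Y128 against Y127, 17 were lower and 1 higher (background 30.3% and 25.9%), with an ATG median of -0.64 against -0.08. The largest of the last set were ATG19, at -2.50 ± 0.28, ATG33, at -2.18 ± 0.22, and ATG8, at -1.85 ± 0.26 (limma adjusted p = 4.24e-07, 8.78e-08 and 6.29e-06). After centring, the counts lower and higher were 26 and 3 for Y128 against Y22-3 (background 41.2% and 46.7%) and 27 and 3 for Y127 against Y22-3 (background 38.6% and 43.6%), and ATG27 was then called lower in both evolved strains. The single gene higher in Y128 than in Y127, ATG22, was called in none of the fits that left out a library.

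The strains also differed in other media. On xylose +O2 the cultures of all 3 strains were labelled as growing. Ribosomal protein medians there were 9.78 and 8.97 log2 RPKM in Y22-3 and 10.1 and 10.2 in Y128. In that medium 29 ATG genes were lower in Y128 than in Y22-3 and 0 were higher (background 31.2% and 16.3%), with an ATG median of -1.09 against -0.22. The count higher was also 0 at an unadjusted p under 0.05 (background 18.7%) and after centring (background 31.5%), with 24 lower after centring (background 23.3%). The largest were ATG14, at -2.67 ± 0.31, ATG36, at -2.51 ± 0.26, and ATG19, at -2.35 ± 0.28 (limma adjusted p = 6.58e-07, 1.43e-07 and 1.34e-06). On glucose -O2, 10 were lower and 1 higher in Y128 (background 14.3% and 6.26%), with an ATG median of -0.32 against -0.13. ATG14 was again the lowest, at -1.95 ± 0.31, and ATG5 was the 1 higher, at 0.92 ± 0.18 (limma adjusted p = 1.25e-04 and 0.0011). On glucose +O2, 13 were lower and 0 higher (background 17.1% and 3.33%), with an ATG median of -0.58 against -0.16. The count higher there was also 0 at an unadjusted p under 0.05 (background 6.84%). After centring, 8 were lower and 2 higher on glucose -O2 (background 13.9% and 14.7%), and 12 lower and 2 higher on glucose +O2 (background 14.8% and 13.1%). Without 1 library the count lower on glucose -O2 was 2 (Y128 replicate A), 4 (Y128 replicate B) or 3 (Y22-3 replicate B), and on glucose +O2 it was 7 (Y128 replicate A), 8 (Y128 replicate B) or 7 (Y22-3 replicate A).

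The second question was the effect of oxygen. On glucose, where all strains grew with and without it, nearly all ATG genes were higher without oxygen. In Y128 28 rose and 1 fell (background 39.6% and 28.8%), with an ATG median of 1.59 against 0.18. In Y127 29 rose and 1 fell (background 35.3% and 32.9%), with an ATG median of 1.53 against 0.02. In Y22-3 27 rose and 0 fell (background 37.7% and 27.6%), with an ATG median of 1.38 against 0.15. The gene that fell in both evolved strains was ATG27, at -0.42 ± 0.16 in Y128 and -0.50 ± 0.16 in Y127, and its fall in Y128 was called in none of the fits that left out a library. In Y22-3 ATG27 changed by -0.06 ± 0.16, and centring made it the 1 gene that fell there (background 40.2%). Before centring 0 ATG genes had an unadjusted p under 0.05 below zero in Y22-3 (background 29%).

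Among the largest rises without oxygen on glucose was that of the vacuolar exporter ATG22, at 4.63 ± 0.16 in Y128, 3.91 ± 0.16 in Y127 and 3.29 ± 0.16 in Y22-3 (limma adjusted p = 5.32e-15, 8.18e-14 and 1.37e-12). ATG8 rose by 3.95 ± 0.26 in Y128, 3.25 ± 0.26 in Y127 and 2.61 ± 0.26 in Y22-3 (limma adjusted p = 6.85e-11, 1.84e-09 and 5.67e-08). The receptor gene ATG19 rose by 3.44 ± 0.28 in Y128, 3.58 ± 0.28 in Y127 and 3.32 ± 0.28 in Y22-3. The kinase gene ATG1 rose by 3.19 ± 0.25, 3.10 ± 0.25 and 2.48 ± 0.25 in the same order. Of the Atg12 system, ATG12 changed by 0.63 ± 0.23 in Y128, 0.50 ± 0.23 in Y127 and 0.50 ± 0.23 in Y22-3, and it passed in Y128 alone, where it no longer did after centring, at 0.33. The difference between strains in these rises was not tested. On glucose, ribosomal protein genes moved the other way, with library medians of 7.99 to 9.09 log2 RPKM without oxygen and 10.9 to 11 with it, and their part in the ATG result was not tested.

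On xylose the same comparison gave more varied counts. In Y128, growing in both states, 14 ATG genes were higher without oxygen and 0 lower (background 21% and 26.3%), with an ATG median of 0.52 against -0.11. In Y127 25 were higher and 0 lower (background 33.6% and 23.5%), with an ATG median of 1.26 against 0.13. In Y22-3 19 were higher and 7 lower (background 20.7% and 63.7%), with an ATG median of 1.40 against -1.28. The counts of 0 lower were 1 each after centring (background 32.7% in Y128 and 37.3% in Y127). At an unadjusted p under 0.05, 1 gene was lower in Y128 and 0 in Y127 (background 30.1% and 25.4%). In Y128 the largest rises were ATG22, at 2.77 ± 0.16, ATG36, at 1.51 ± 0.26, and ATG15, at 1.37 ± 0.18, while ATG8 changed by 0.25 ± 0.26 (limma adjusted p = 1.98e-11, 7.21e-05, 2.70e-06 and 0.453). In Y127 the receptor gene ATG36 led, at 3.11 ± 0.26 (limma adjusted p = 7.11e-09). In Y22-3 the largest were ATG8, at 3.40 ± 0.26, ATG33, at 2.92 ± 0.22, and ATG26, at 2.73 ± 0.19 (limma adjusted p = 1.94e-10, 1.36e-10 and 4.40e-11), and ATG22 changed by -0.19 ± 0.16. Centring gave 25 higher and 3 lower in Y22-3 (background 40.3% and 45%), with ATG22 among the 25, at 0.96. Without replicate B of Y128 on xylose -O2 the count of 14 was 9, and without replicate B of Y127 on xylose +O2 the count lower in Y127 was 1.

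The sugars were also compared with oxygen present, where the cultures of all 3 strains were labelled as growing. On xylose +O2 against glucose +O2, 14 ATG genes were higher and 0 lower in Y128 (background 24.3% and 18.6%), with an ATG median of 0.48 against 0.02. In Y127 7 were higher and 4 lower (background 14% and 25.8%), with an ATG median of 0.24 against -0.22. In Y22-3 23 were higher and 0 lower (background 31% and 22.1%), with an ATG median of 1.27 against 0.11. ATG19 was the largest rise in all 3 strains, at 3.06 ± 0.28 in Y128, 2.17 ± 0.28 in Y127 and 4.23 ± 0.28 in Y22-3 (limma adjusted p = 3.10e-08, 6.04e-06 and 1.56e-10). ATG33 rose by 1.54 ± 0.22, 1.22 ± 0.22 and 2.54 ± 0.22 in the same order. At an unadjusted p under 0.05 the counts lower were 1 in Y128 and 0 in Y22-3 (background 22.4% and 24.4%). After centring, 14 were higher and 3 lower in Y128 (background 25.7% and 29.7%). The centred counts were 12 higher and 4 lower in Y127 (background 22% and 21.9%), and 22 higher and 0 lower in Y22-3 (background 28.6% and 34.6%). In Y127 the counts of 7 and 4 were 3 and 2 without library 1 of glucose +O2, 4 and 8 without replicate A of xylose +O2, and the count lower was 1 without replicate B.

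Sorbitol, on which neither strain grew, was set against galactose, on which both grew, over 4 pairs of single libraries with strain and oxygen in the model. Averaged over the pairs, 0 ATG genes rose and 0 fell by limma (background 0.985% and 19%), with an ATG median of 0.18 against -0.88 over the 5785 genes tested. At an unadjusted p under 0.05, 2 ATG genes were higher and 0 lower, against 2.66% and 38% of all genes, and the lowest adjusted p was 0.059, for ATG14. After centring 0 ATG genes were called in either direction (background 0.0173% higher and 0.121% lower). Without the Y22-3 pair at -O2 the count of rises was 1. A model of all 20 groups, which took the spread from the duplicated groups, called 13 higher and 9 lower (background 11.6% and 70.8%). The pairs themselves moved in opposite directions by oxygen state. Without oxygen, 8 of 31 genes were higher on sorbitol in Y128 and 1 of 31 in Y22-3, with ATG medians of -0.89 and -1.67 against -1.13 and -1.29 over all genes. With oxygen, 28 of 31 were higher in Y128 and 28 of 31 in Y22-3, with ATG medians of 1.70 and 1.76 against -0.19 and -0.72. Set against the all-gene median of the pair, 18 of 31 were above it in Y128 and 9 in Y22-3 without oxygen. With oxygen 29 were above it in Y128 and 29 in Y22-3.

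A model with the sugar effect fitted apart for each oxygen state was added after the values had been seen. With 1 library per condition, each effect averages Y128 and Y22-3, and the residual holds their disagreement, not a spread of replicates. Without oxygen ATG8 differed by 3.06 in Y128 and -1.51 in Y22-3, and ATG1 by -2.86 and -2.46. In this model, 0 ATG genes rose and 12 fell without oxygen (background 0.726% and 36.2%), while 14 rose and 0 fell with it (background 5.69% and 15%). The share of ATG genes that fell without oxygen was thus near that of all genes, and the ATG median there was -1.11 against -1.32 over all genes. With oxygen the medians were 1.62 and -0.46. At an unadjusted p under 0.05 the counts higher and lower were 1 and 15 without oxygen (background 1.68% and 49.2%) and 18 and 0 with it (background 9.89% and 25.6%). The difference of the sugar effects, -O2 minus +O2, was called lower for 15 genes and higher for 0 (limma, 3 residual degrees of freedom, background 8.97% and 0.605%), with an ATG median of -2.84 against -0.83 over all genes. At an unadjusted p under 0.05 those counts were 21 and 0 (background 24.7% and 3.68%). On sorbitol itself, 30 of 31 genes in Y128 and 31 of 31 in Y22-3 were lower without oxygen than with it, where the ATG medians were -2.66 and -2.49 and those of all genes -1.29 and -1.72. The 1 exception in Y128 was ATG5. With those all-gene medians below 0, most of all genes were also lower without oxygen on sorbitol, and their exact share was not counted. The Y22-3 galactose -O2 library stands apart, as given above, and it enters the modelled -O2 estimates and the difference between oxygen states. The values of the Y128 pairs do not rest on it. In the Y128 pair without oxygen the ATG median was -0.89 against -1.13 over all genes.

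**Figure D5:**
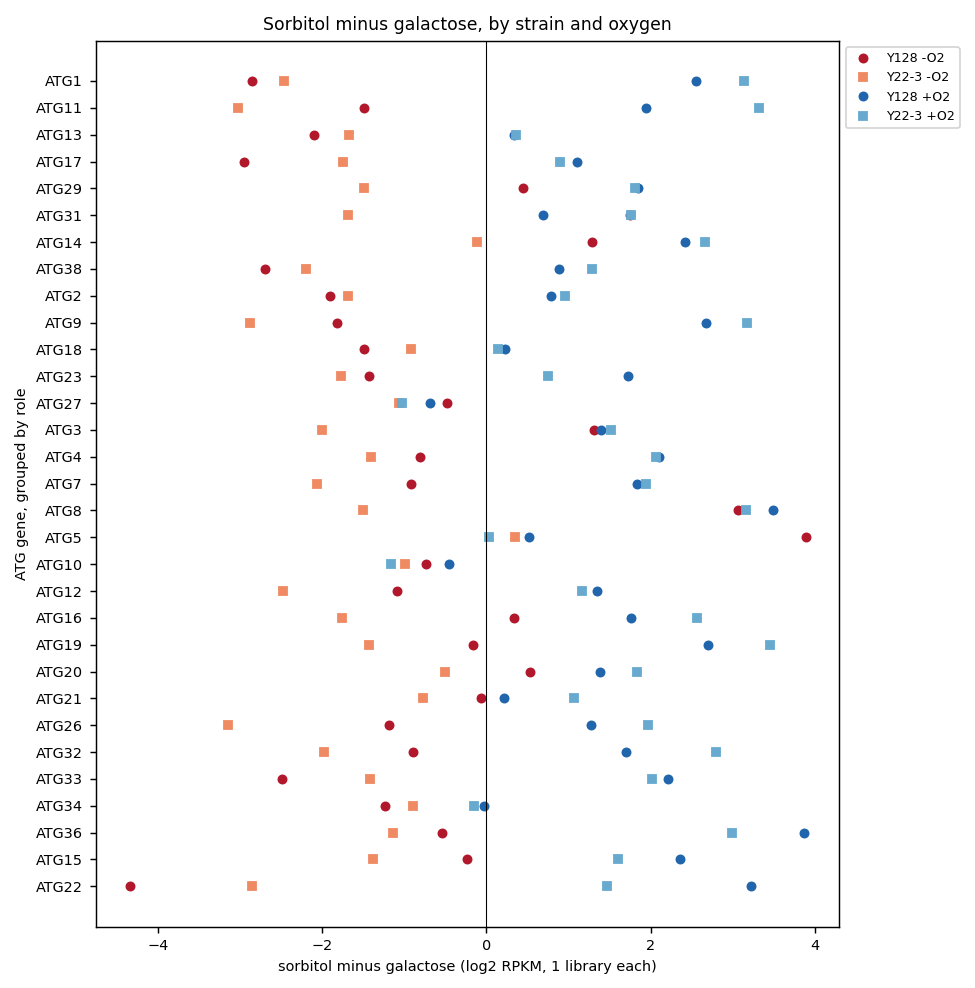
Sorbitol minus galactose in log2 RPKM for each ATG gene (rows), from 1 library each, in Y128 (circles) and Y22-3 (squares) without oxygen (red and orange) and with oxygen (blue shades). The -O2 pairs lie mostly left of 0 (8 of 31 genes are right of it in Y128 and 1 in Y22-3, with ATG5 in Y128 at 3.88), and the +O2 pairs mostly right (28 of 31 genes in each strain). The all-gene medians are -1.13 in Y128 and -1.29 in Y22-3 without oxygen, and -0.19 and -0.72 with it.

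Genes around the ATG machinery were followed as lists. Of the vacuolar hydrolases, 7 of 11 rose and 4 fell in Y22-3 on xylose -O2 against glucose -O2. The carboxypeptidase gene PRC1 changed by 2.09, the phosphatase PHO8 by 1.96 and the protease PEP4 by 1.32, while APE1, the aminopeptidase carried by Atg19, changed by -3.31. Of partners of autophagy with other symbols, 3 of 14 rose and 10 fell, among them the tethering subunit TRS85 (-3.87), the kinase VPS15 (-3.76) and CCZ1 (-3.58), which acts in fusion with the vacuole. Genes of the TORC1 kinase, which holds autophagy down in fed cells, and its regulators had 2 of 14 higher and 8 lower, among them NPR3 (-2.87), part of a complex that restrains TORC1. Known repressors of ATG transcription had 2 of 5 higher and 2 lower, with RPH1 at 1.49 and SIN3 at -1.54. Known activators had 1 of 5 higher and 3 lower, with GAT1 at 0.74 and SPT10 at -2.03. These counts are to be read against the 21.9% of all genes that rose and the 64.7% that fell. In Y128 the hydrolases had 2 higher and 2 lower (background 12.3% and 26.5%), and in Y127 5 higher and 3 lower (background 21.8% and 28.4%). On glucose -O2 against glucose +O2, 6 of 11 hydrolases rose and 1 fell in Y128, with 3 of 5 activators higher and 0 lower (background 39.6% and 28.8%). In the same comparison 8 of 11 hydrolases rose and 0 fell in Y127, with 4 of 5 activators higher and 0 lower (background 35.3% and 32.9%). There 9 of 11 hydrolases rose and 0 fell in Y22-3, with 4 of 5 activators higher and 0 lower (background 37.7% and 27.6%).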

How the data were processed

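Per the submitters' processing notes and the study's methods, the authors trimmed the reads with Trimmomatic 0.3.0, mapped them to the Y22-3 genome with Bowtie2 2.2.2 and counted them per gene with HTSeq 0.6.0. The deposited table holds log2 RPKM values, scaled by the authors to gene length and library total, for 6328 genes and 32 libraries, and all columns were used. The 4 columns of Y127 on glucose are known by group and not by replicate letter. Read totals were recovered from these values and are estimates: taking coding lengths from the R64 reference of another strain, 83.0% to 89.4% of values under 200 reads came out within 0.1 of a whole read. The variance between replicates was 1.15 to 13.5 times counting noise over the 12 groups, so every library counted as 1 sample.

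A limma 3.58.1 model (R 4.3.3) of the 12 groups was fitted to the values of the 5801 genes with a mean of at least 1 RPKM, with 12 residual degrees of freedom and a variance trend. The 8 single libraries had their own model, with strain, oxygen and sugar, 5785 genes and 4 residual degrees of freedom. With 1 library per condition, the residual of that model holds any interaction and not a spread of replicates. P-values were adjusted by Benjamini-Hochberg over all genes tested. The scripts were run on simulated counts with the same spread in every group, which differs from these data. That run checks the code and not the reliability of the calls. Tables were handled with Python 3.11.15, numpy 2.4.6 and pandas 2.3.3, and figures with matplotlib 3.10.9.

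The ATG genes, the roles and the lists were chosen with earlier results of these data known. Values in every library are given for 9 genes fixed by role (ATG1, ATG7, ATG8, ATG9, ATG13, ATG14, ATG15, ATG19 and ATG32) and for the 3 largest rises and 3 largest falls, called and without overlap of the libraries, in each strain on xylose -O2 against glucose -O2 and on sorbitol against galactose, where none was called. Other genes are given by counts, ranges or a single value. Alternatives were another offset, no filter, median centring, fits of the compared libraries, a replicate block, the strain and oxygen pairs as blocks, a 20-group model and leaving out each library or pair. Promoter motifs and genome positions were not analysed here, because the reference at hand is of another build than the Y22-3 genome.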

Additional observations from a re-analysis of the deposited data

Results flagged for a closer look

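The change of ATG genes on xylose -O2 relative to glucose -O2 differed between strains by a test of the interaction in limma with Benjamini-Hochberg adjustment. For Y128 against Y22-3 it was lower in Y128 for 20 genes and higher for 6 (background 23% and 56.1%). For Y127 against Y22-3 it was lower in Y127 for 18 and higher for 6 (background 17.2% and 60%). For Y128 against Y127 it was lower in Y128 for 4, or 12.9% of the 31, which is below the 16.2% of all genes, and that count was 2 to 9 without 1 library. The 3 comparisons share libraries. Among the genes fixed by role, the difference between Y128 and Y22-3 was -5.01 ± 0.37 (SE) for ATG8, -2.87 ± 0.36 for ATG1, -2.81 ± 0.27 for ATG32, -2.50 ± 0.40 for ATG19, -1.75 ± 0.36 for ATG9, -1.33 ± 0.43 for ATG14 and -0.72 ± 0.25 for ATG15. The difference between Y127 and Y22-3 was -3.32 ± 0.37 for ATG8, -2.56 ± 0.36 for ATG1, -2.42 ± 0.27 for ATG32, -1.55 ± 0.43 for ATG14, -1.55 ± 0.40 for ATG19, -1.43 ± 0.36 for ATG9 and -0.76 ± 0.25 for ATG15. Between Y128 and Y127 the fixed gene past the threshold was ATG8, at -1.70 ± 0.37. ATG7 and ATG13 passed in none of the 3 comparisons, but after centring both were called lower in Y128 and in Y127 than in Y22-3. The difference of sorbitol minus galactose differed by oxygen state for 15 genes, all lower without oxygen, in the model added after the values were seen (background 8.97% lower and 0.605% higher). The ATG median of that difference was -2.84, against -0.83 over all genes. With 1 library per condition, the residual of that model is disagreement between the strains, not a spread of replicates.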

How the results depend on the processing

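With each library centred on its median, 24 ATG genes rose and 3 fell in Y22-3 on xylose -O2 against glucose -O2, 4 rose in Y127 (background 28.7%), and 25 rose and 3 fell in Y22-3 on xylose -O2 against xylose +O2, where 1 each fell in Y127 and Y128. On xylose -O2, 3 were then higher in Y128 than in Y22-3, 3 in Y128 than in Y127 (background 33.9%) and 3 in Y127 than in Y22-3, and the interactions had 3, 2 and 2 higher in the same order. On xylose +O2 against glucose +O2 the centred counts were 12 higher in Y127 and 3 lower in Y128, and on glucose -O2 against glucose +O2 1 was lower in Y22-3. In Y128 against Y22-3, 2 were higher on glucose -O2 and 2 on glucose +O2. Among named genes, centring turned the changes in Y22-3 on xylose -O2 against glucose -O2 to 0.98 for ATG13, 1.18 for ATG15 and 0.11 for ATG34, and the falls of ATG10, ATG23 and ATG27 there were no longer called. Fitting the compared libraries alone gave 1 higher and 6 lower in Y127 on xylose -O2 against glucose -O2 (background 16.9% and 21.4%), 1 lower in Y128 on xylose -O2 against xylose +O2 (background 40%), 2 higher in Y128 than in Y127 on xylose -O2 (background 26.3%), 4 higher and 0 lower in Y127 (background 9.48% and 12.8%) and 3 lower in Y128 (background 33.6%) on xylose +O2 against glucose +O2, and 22 lower in Y128 than in Y22-3 on glucose +O2 (background 38.2%). On the log2(RPKM + 1) scale, 2 were higher in Y128 than in Y127 on xylose -O2 (background 26.5%). No filter on low values kept all counts of calls within 1.5 times. For sorbitol against galactose, the model of all 20 groups gave 13 higher and 9 lower (background 11.6% and 70.8%), and the oxygen states fitted apart, chosen after seeing the data, gave 12 lower without oxygen (background 36.2%) and 14 higher with it (background 5.69%). In that fit ATG1 was at -2.66, ATG7 at -1.49, ATG9 at -2.36 and ATG11 at -2.26 without oxygen, and ATG22 at 2.35 with it, each opposite in sign to the value averaged over the pairs.

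Leaving out 1 library at a time gave 1 to 3 higher and 5 to 12 lower in Y127 on xylose -O2 against glucose -O2 and 0 higher in Y128. On xylose -O2 against xylose +O2 it gave 0 to 1 lower in Y127 and 9 to 13 higher in Y128, and on xylose -O2 0 higher in Y128 than in Y127, with 2 to 9 lower in the interaction of these strains. On xylose +O2 against glucose +O2 it gave 3 to 9 higher and 1 to 8 lower in Y127, on glucose -O2 against glucose +O2 0 lower in Y128, and in Y128 against Y22-3 2 to 7 lower on glucose -O2 and 7 to 10 lower on glucose +O2. Leaving out 1 sorbitol and galactose pair gave 0 to 1 higher. With 1 library left in a group, that library is assumed to vary like the other groups.

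The replicate letter as a block was fitted where the columns give it. It left 18 higher and 8 lower in Y22-3 (background 21.9% and 64.7%) and 1 higher and 13 lower in Y128 (background 13.9% and 26%) on xylose -O2 against glucose -O2, and moved no other count of calls by over 1.5 times. Over 45 pairs of groups the deviations of same-lettered libraries had correlations of -0.105 to 0.332, with a median of 0.0108. Of these, 7 were above 0.1 and 1 below -0.1. Most same-lettered libraries thus shared little and some shared a deviation, and the main model held no block. No block could be fitted for comparisons with Y127 on glucose, whose letters are unknown. With 2 libraries per group, small changes were not detectable, and genes with few reads are the least precise.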
